A study of Sus scrofa with 2 samples.

Results

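Myelin is the layered membrane that oligodendrocytes wrap around axons, and the 9 genes described here encode proteins of that sheath or of the cells that make it: OPALIN, GJB1, MOG, MAG, MOBP, CNP, CLDN11, UGT8 and BCAS1. They were taken by gene symbol from a deposited table of expression values with 25322 Ensembl pig gene IDs. An ID paired with the symbol was found for 7 of the 9; MOBP, an abundant basic protein of compact myelin, and UGT8, the enzyme that makes galactocerebroside, matched no row and were not analysed here. All 7 were above a mean of 20 FPKM (sequenced fragments per kilobase of a transcript, relative to all mapped fragments).

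RNA was sequenced from the hippocampus of Rongchang piglets, a Chinese pig breed, whose genotype the labels give as "wide type". The groups were a control, with 1 sample, and animals given iron dextran, with 1 sample; iron dextran is a complex of iron with a sugar polymer, used in piglets against iron deficiency. Dose, age, sex and animal numbers are not stated in the sources used here, and each sample carries 2 names that may be animals, libraries or runs. With 1 sample per group there was no spread between replicates, no test was made, and no difference below has a replicate check. In bulk tissue, fewer cells of a type and less RNA per cell cannot be told apart.

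Oligodendrocytes arise from precursor cells that carry the receptor PDGFRA, pass through a short premyelinating stage and then switch on the genes of the sheath. Compact myelin holds a few abundant membrane and basic proteins, while others sit at the inner face next to the axon, in the cytoplasmic channels, at the tight junctions that seal the layers and on the outer surface. Oligodendrocytes are among the most iron-rich cells of the brain, and several enzymes of lipid and energy metabolism in them need iron. In the hippocampus myelinated fibres run mainly in the alveus, the fimbria and the perforant path.

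The tissue label was set against neuronal and hippocampal markers. The 8 neuronal markers with an ID summed to 4188 FPKM in control against 4039 with iron dextran. Of 8 hippocampal neuron genes chosen after the values were known, 6 had an ID; FIBCD1, of CA1 pyramidal cells, had 29.6 and 28.8 FPKM, and C1QL3, of dentate granule cells, had 11.5 and 16.5. POU3F1, of CA1, had 12.2 and 16.2 FPKM, and NECTIN3, of CA3, had 11.1 and 8.496, so that the 4 genes averaging 1 FPKM or more were split, 2 higher and 2 lower. PROX1 and ZBTB20, also hippocampal, were under 1 FPKM in both samples. The FPKM columns summed to 924070 and 850165. The number of fragments behind them is unknown; read from the steps between low values, iron dextran had 1.06 times the depth of control.

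Of the 7 genes, 6 had a lower FPKM in the iron dextran sample than in control, and MOG had a higher one. GJB1, BCAS1 and OPALIN were between 1.31-fold and 1.39-fold lower, MAG, CNP and CLDN11 between 1.09-fold and 1.19-fold lower, and MOG was 1.11-fold higher. Summed over the 7 genes, the level was 3167 FPKM in control against 2723 with iron dextran, or 0.343% and 0.320% of the column totals. On the log2(FPKM + 1) scale, with control subtracted from iron dextran, the median difference of the 7 was −0.25, where the median over the 12557 genes that averaged 1 FPKM or more was −0.0046 and that over the 4014 genes at 20 FPKM or more was −0.06.

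**Figure D1:**
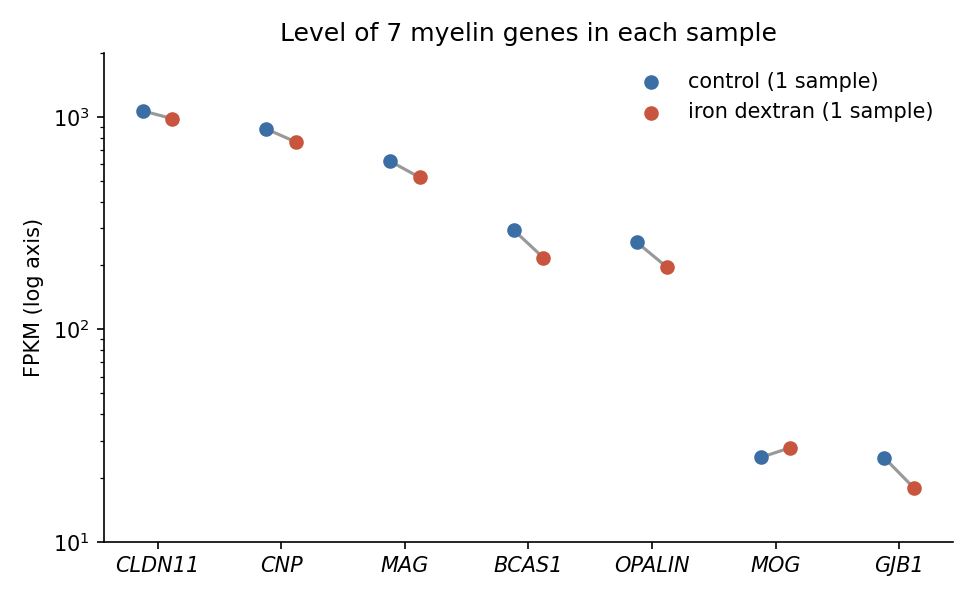
FPKM (log axis) of the 7 myelin genes in the control sample (blue) and the iron dextran sample (red), 1 sample each, ordered by control level; a line joins both values of a gene. The red point is the lower one for 6 genes, and for MOG it is the higher one (27.8 against 24.98 FPKM).

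Levels per length spanned a wide range. In control, CLDN11 was highest at 1068 FPKM and GJB1 lowest at 24.9, a ratio of 42.9. The order from high to low was CLDN11, CNP, MAG, BCAS1, OPALIN, MOG and GJB1 in both samples. MOG and GJB1 stood next to each other in control, at 24.98 and 24.91 FPKM, and apart in iron dextran, at 27.8 and 17.9 FPKM. Among all 25322 IDs, CLDN11 ranked 72nd in control and 76th in iron dextran by FPKM, and GJB1 ranked 3423rd and 4324th.

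GJB1 and CLDN11 encode junction proteins of the sheath. GJB1 (ENSSSCG00000012394) encodes connexin 32, which forms gap junctions between neighbouring layers of myelin and whose mutation causes an X-linked neuropathy. It had 24.9 FPKM in the control sample and 17.9 with iron dextran (log2 difference −0.45), the lowest of the 7. Of the 4014 genes with a mean of at least 20 FPKM, 1.35% had a lower difference than GJB1. CLDN11 (ENSSSCG00000011747) encodes claudin-11, the tight junction protein that seals the lamellae. It had 1068 and 981 FPKM (log2 difference −0.12), close to the median of −0.10 over the 628 genes of its own range of FPKM (154 and above). Connexin and claudin of the same sheath thus sat at opposite ends of the 6 genes that were lower.

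MAG and MOG encode surface glycoproteins of the immunoglobulin family, at the inner and the outer face of the sheath. MAG (ENSSSCG00000002887) encodes myelin-associated glycoprotein, which lies on the membrane next to the axon and binds sialic acid on it. Its FPKM was 619.9 in the control sample and 519.6 with iron dextran (log2 difference −0.25), and 6.73% of the genes at 20 FPKM or more had a lower one. MOG (ENSSSCG00000001248) encodes myelin oligodendrocyte glycoprotein, found on the outermost surface and known as a target of autoantibodies. Its FPKM was 24.98 in the control sample and 27.8 with iron dextran (log2 difference 0.15), and 90.7% of the genes at 20 FPKM or more had a lower one. MOG was the 1 gene of the 7 above 0, on the unscaled values and under every other scaling and pseudocount tried.

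CNP (ENSSSCG00000017420) encodes the cyclic nucleotide phosphodiesterase that keeps the cytoplasmic channels of myelin open. It had 878 FPKM in the control sample and 762 with iron dextran (log2 difference −0.21). OPALIN (ENSSSCG00000010506) encodes a small transmembrane glycoprotein made by mature oligodendrocytes. It had 257 and 197 FPKM (log2 difference −0.38). BCAS1 (ENSSSCG00000007485) marks oligodendrocytes that have just begun to myelinate. It had 294 and 218 FPKM (log2 difference −0.43). OPALIN and BCAS1 thus lay together; one is used as a marker of mature cells and the other of a stage before. In the RefSeq annotation of Sscrofa11.1, BCAS1 was the 1 gene of the 9 whose span overlaps another gene, a long non-coding RNA, and use of strand in the counting is not stated.

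To set the 7 against all genes, a gene was counted as lower where its FPKM + 1 in iron dextran was at most 0.8 times that in control, and as higher where the reverse held (both called the 0.8 limit below). By this count 3 of the 7 were lower, namely GJB1, BCAS1 and OPALIN, and none was higher. Among all 12557 genes, 5.96% were lower and 8.81% higher; over the 4014 genes at 20 FPKM or more, a level chosen after the values were known, these shares were 3.29% and 2.12%. None of the 7 was at least 1.5-fold lower, which 1.47% of all genes and 0.523% of those at 20 FPKM or more were, and none was 1.5-fold higher, which 2.47% and 0.623% were. With both columns scaled to the same total, which moves every gene of this level up by about 0.12, the count of lower genes was 1, GJB1 alone. Below 0 were 6 of the 7, beside 51.0% of all genes and 67.6% of those at 20 FPKM or more. Neither share is matched to OPALIN, BCAS1, MAG, CNP and CLDN11, which averaged 154 FPKM or more. Over the 628 genes of that range even the upper quartile was below 0, at −0.04. The 7 myelin genes were proposed as a group with their differences already known, so the counts describe them and test nothing.

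**Figure D2:**
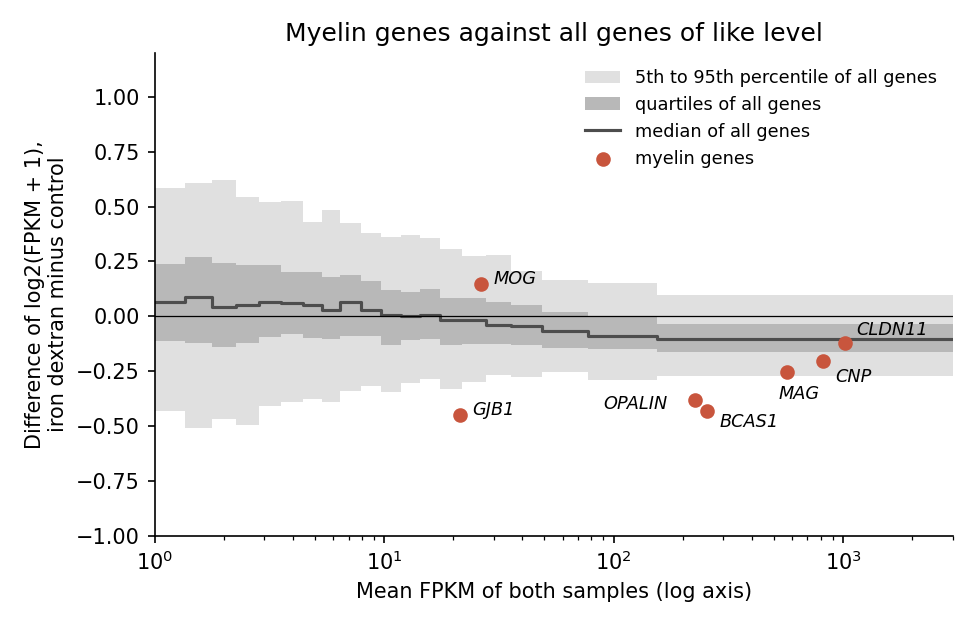
Log2(FPKM + 1) in iron dextran less that in control, against the mean FPKM (log axis); grey bands give the 5th to 95th percentile and the quartiles of all genes averaging 1 FPKM or more in 20 bins of equal size, the line their median, and red points the 7 myelin genes. GJB1, OPALIN and BCAS1 lie below the lighter band, MAG and CNP between its lower edge and the quartiles, CLDN11 between the quartiles and MOG above the upper quartile.

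The level of a gene bears on what difference is usual for it. The median difference went from 0.07 in the bin of lowest FPKM to −0.10 in the highest, the bin of OPALIN, BCAS1, MAG, CNP and CLDN11. The 5th percentile was −0.27 in that highest bin and −0.33 in the bin of GJB1, and all 3 of GJB1, BCAS1 and OPALIN were below it. MAG and CNP lay between the 5th percentile and the lower quartile of −0.16. MOG, at 0.15, lay between the upper quartile of 0.09 and the 95th percentile of 0.27 in the bin of MOG. After the median of its bin was taken off, the difference was −0.44 for GJB1, −0.33 for BCAS1, −0.28 for OPALIN, −0.15 for MAG, −0.10 for CNP, −0.02 for CLDN11 and 0.16 for MOG. The order of the genes was the same as before, and so was the side of 0 of each.

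**Figure D3:**
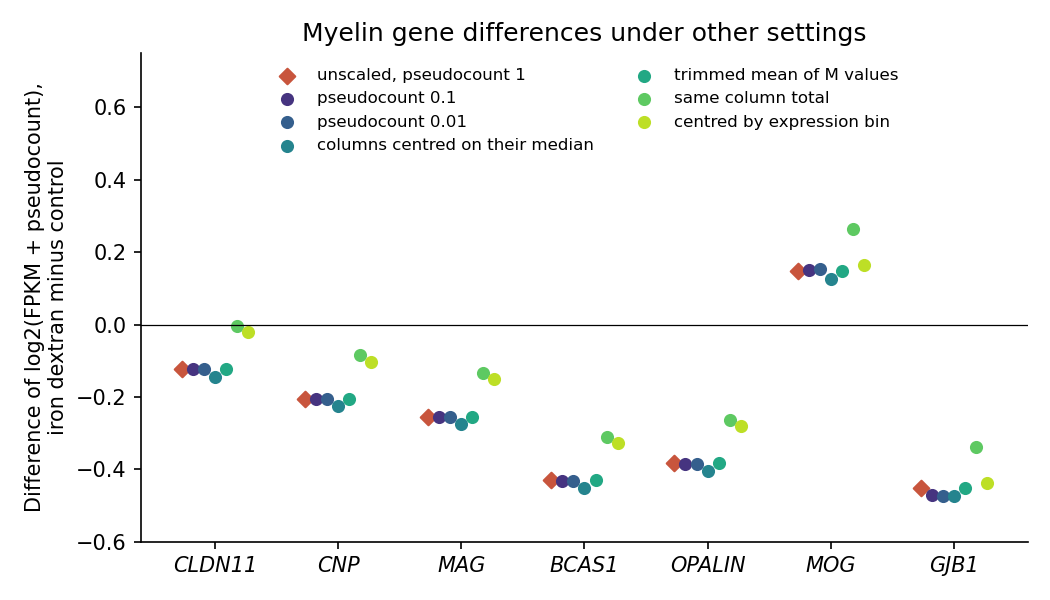
Difference of log2(FPKM + pseudocount), iron dextran minus control, of the 7 myelin genes under the unscaled values (red diamond) and 6 other settings of the pseudocount and the scaling (circles). Each gene keeps its side of 0 in all 7 settings; CLDN11 comes nearest to it, at −0.0025 with the same column total.

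A ratio between a pair of genes in the same sample does not depend on how the column was scaled. Of the 21 pairs that the 7 genes form, the FPKM ratio differed between the samples past the 0.8 limit (1 sample at most 0.8 times the other) in 6, and 5 of these 6 held MOG. The largest was MOG to GJB1, 1.003 in control and 1.55 in iron dextran. All 21 ratios come from the same 7 values per sample, so the pairs are not separate observations. Those with MOG restate that MOG alone was higher. The share of pairs past this limit among all genes was not computed. MAG stood at 24.8 times MOG in control and 18.7 times in iron dextran, with both genes measured in the same libraries. The pair without MOG that passed was CLDN11 to GJB1, with 42.9 and 54.7. Of the 15 pairs that did not pass, those nearest the limit were CLDN11 to MOG, with 42.8 and 35.3, and CLDN11 to BCAS1, with 3.63 and 4.50. Among the pairs that differed least, BCAS1 to OPALIN was 1.15 in control and 1.11 in iron dextran, CNP to MAG was 1.42 and 1.47, and BCAS1 to GJB1 was 11.8 and 12.1.

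**Figure D4:**
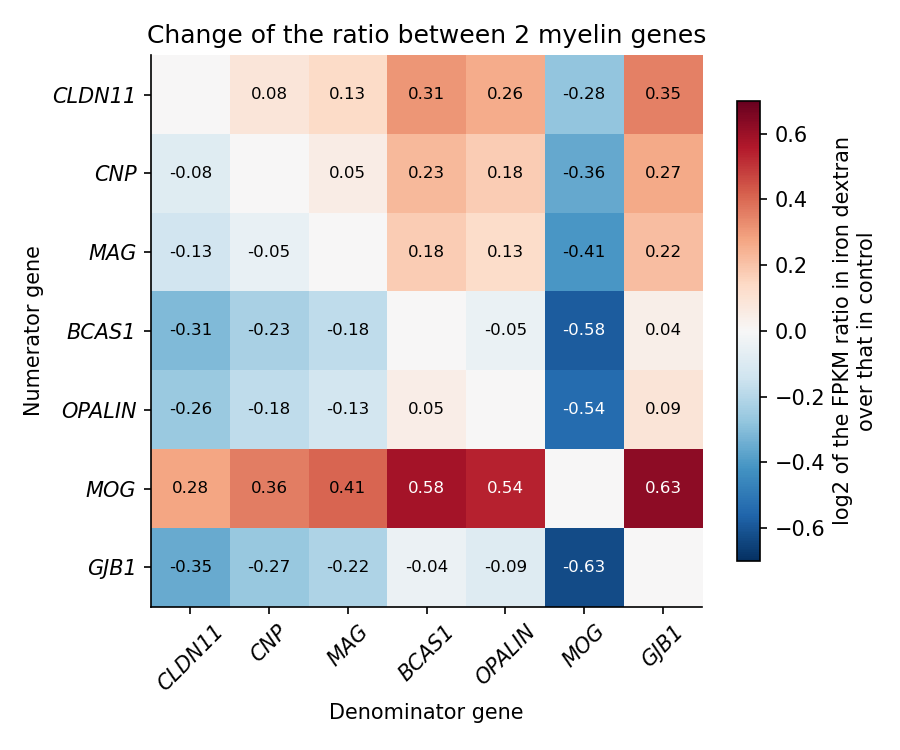
Log2 of the FPKM ratio between a pair of myelin genes in the iron dextran sample over the same ratio in the control sample; red marks a higher ratio of row gene to column gene in iron dextran and blue a lower one, with genes in the order of their control level. The row of MOG is red throughout, from 0.28 against CLDN11 to 0.63 against GJB1, and the 3 genes BCAS1, OPALIN and GJB1 differ from each other by at most 0.09.

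The wider set of genes of myelin and mature oligodendrocytes also had a median below 0. Of 39 listed genes, 25 had an ID and averaged 1 FPKM or more. Of these, 18 were below 0 and 7 above, with a median log2 difference of −0.14. Of all genes 51.0% were below 0, and of those at 20 FPKM or more 67.6%. The list holds genes on both sides of 20 FPKM, so neither share is matched to its level. Of the 7 above 0, all but CA2 averaged under 20 FPKM. Over the list genes averaging at least 20 FPKM the median was −0.16, where that of all such genes was −0.06. Past the 0.8 limit 4 were lower (TF, TMEM125, PADI2 and PLLP) and 1, CA2, was higher, beside the 5.96% and 8.81% of all genes; PLLP at −0.32 lay just inside that limit and PLEKHB1 at −0.31 just outside. TF, transferrin, the iron carrier that oligodendrocytes make in the brain, had 165 FPKM in the control sample and 113 with iron dextran (log2 difference −0.54), the largest of the list. TMEM125, a membrane protein, had 96.8 and 72.7 FPKM, and PADI2, which turns arginine of proteins such as myelin basic protein into citrulline, had 46.2 and 35.3. PLLP, the plasmolipin of the myelin membrane, had 433 and 346 FPKM. CA2, the carbonic anhydrase of oligodendrocytes, was higher, with 27.5 and 34.9 FPKM. The median of this list stayed below 0 under all 9 alternatives, from −0.16 to −0.02. It was −0.05 with each bin centred and −0.02 with the same column total. MBP, MYRF, SOX10 and GPR17 matched no row and were not analysed here.

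Gap junctions couple oligodendrocytes to each other and to astrocytes. GJA1, connexin 43 of astrocytes, had 178 FPKM in the control sample and 216 with iron dextran (log2 difference 0.27), and its ratio to GJB1 was 7.15 and 12.01. GJB1 was therefore lower and the astrocyte connexin higher in the iron dextran sample, in these 2 libraries.

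Galactocerebroside and sulfatide are the lipids for which myelin is known. Of 12 measured genes of sphingolipid synthesis and turnover, 9 were below 0 and 3 above. Of all genes 51.0% were below 0, and of those at 20 FPKM or more 67.6%. The 3 above 0 averaged under 20 FPKM, so the latter share is not matched to the list. The median was −0.11, or 0.0072 with equal column totals and −0.17 over genes averaging at least 20 FPKM. CERS2, which makes ceramides with very long chains, had 175 FPKM in control against 146 with iron dextran. FA2H, which hydroxylates the fatty acids of galactolipids, had 82.0 and 69.9 FPKM. SMPD1, the acid sphingomyelinase of lysosomes, had 71.2 and 53.8 FPKM, and was the 1 gene lower by the 0.8 limit. SPTLC1, a subunit of the enzyme of the first step, had 9.14 and 12.9 FPKM, and was the 1 gene higher by it, beside 5.96% and 8.81% of all genes.

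The transcription factors of the lineage were measured for 5 of 13 listed genes. Of the 5, 4 were below 0, beside 51.0% of all genes and 67.6% of those at 20 FPKM or more. None was past the 0.8 limit, where 5.96% of all genes were lower and 8.81% higher. The median of the 5 was −0.16. OLIG1 had 268 FPKM in the control sample and 219 with iron dextran (log2 difference −0.30). OLIG2, which specifies the lineage, had 59.6 and 54.6 FPKM (log2 difference −0.13). TCF7L2, of cells about to myelinate, had 4.22 and 3.54 FPKM. SOX9, above 0 with 18.8 and 21.0 FPKM, is also an astrocyte gene and is on that list too.

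Genes of earlier stages lay on both sides of 0. Of all genes 51.0% were below 0, and of those at 20 FPKM or more 67.6%. Past the 0.8 limit 5.96% of all genes were lower and 8.81% higher. Of 6 measured genes of oligodendrocyte precursors, 3 were above 0 and 3 below; the median was −0.03, and was above 0 once column totals were made equal, and among genes averaging at least 5 or at least 20 FPKM. PDGFRA, the growth factor receptor that defines precursors, had 4.54 FPKM in the control sample and 6.13 with iron dextran (log2 difference 0.37) and was the 1 gene of the list past the 0.8 limit. CSPG4, the precursor proteoglycan NG2, had 1.71 and 2.25 FPKM (log2 difference 0.27). MATN4, a matrix protein, had 1.46 and 1.047 FPKM, and the proteoglycan VCAN had 14.6 and 13.2. Of 6 measured genes of newly formed oligodendrocytes, 4 were below 0 and none was past the 0.8 limit; the median was −0.03, and 0.09 with the same column total. ENPP6, a phosphodiesterase that marks this stage, had 17.5 and 17.0 FPKM, ENPP4 had 2.90 and 2.41, and the kinase FYN had 212 and 196. BCAS1, named for the same stage, had a log2 difference of −0.43, lower than each of these 6.

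On the axon side, 7 of 10 measured genes of the node and paranode were above 0 and 3 below, with a median of 0.08. Below 0 were 51.0% of all genes and 67.6% of those at 20 FPKM or more, and neither share is matched to this list. Low genes tended to lie above 0: between 2.27 and 2.86 FPKM the median of all genes was 0.05. The list median was 0.10 with each bin centred. Over its genes averaging 20 FPKM or more it was −0.04, where all such genes had −0.06. NRCAM, an adhesion molecule of the node, had 3.85 FPKM in control against 5.47 with iron dextran. ADAM22, of the zone beside the paranode, had 2.01 and 2.96 FPKM, and the potassium channel KCNA1 of the same zone had 8.99 and 6.91. CNTN1 and CNTNAP1, the axonal pair that anchors the paranodal loops, had 117 and 123 FPKM and 18.1 and 19.5 FPKM. Among genes that take up or modify inhibitory signals of myelin such as MAG, 2 of 4 measured were below 0; LINGO1, a coreceptor, had 172 and 153 FPKM, B4GALNT1, which makes the complex gangliosides that MAG binds, had 35.9 and 31.1, and TNFRSF19 had 5.01 and 5.48. Their median of −0.05 was 0.07 with the same column total, −0.17 without a filter and −0.19 over genes averaging at least 20 FPKM.

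Of 11 measured ligands, receptors and regulators that act on oligodendrocytes, 8 were below 0, beside 51.0% of all genes and 67.6% of those at 20 FPKM or more. Their median of −0.07 was 0.02 with the same column total, and −0.20 and −0.21 over genes averaging at least 5 and at least 20 FPKM. FGFR2, a receptor on oligodendrocytes that sets sheath thickness, had 75.7 FPKM in control against 59.6 with iron dextran. FGFR2 was the 1 gene past the 0.8 limit, where 5.96% of all genes were lower and 8.81% higher. JAG1, a ligand of Notch, had 3.70 and 4.68 FPKM, and the protease ADAM17 had 19.8 and 16.3.

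Markers of other cells in the tissue are given beside these values; their part in the differences of the myelin genes was not tested. The 8 astrocyte markers were split, 4 above 0 and 4 below, with a summed level of 3175 FPKM in control against 2947 with iron dextran. Their median was 0.02, and ran from 0.0028 to 0.14 over all settings. The 8 neuronal markers had 3 above 0 and 5 below, with a median of −0.03 that was above 0 once column totals were made equal or each bin was centred. All 6 measured microglial markers were above 0 and 4 of them were higher past the 0.8 limit, with a summed level of 97.1 and 124 FPKM. Past this limit 8.81% of all genes were higher and 5.96% lower. Of all genes 51.0% were below 0, and of those at 20 FPKM or more 67.6%. The microglial median of 0.40 was 0.17 at a mean FPKM of at least 20. P2RY12, a receptor for nucleotides, had 9.80 and 20.05 FPKM. Of 7 markers of meninges and fibroblasts, 5 were below 0 and 4 of them past the 0.8 limit; the summed level was 68.5 and 58.3 FPKM, and the median of −0.38 was 0.0059 at a mean FPKM of at least 20, where DCN alone is left. Of 4 endothelial markers 3 were below 0, with a summed level of 27.8 and 25.3 FPKM, and the 5 markers of choroid plexus and ependyma with an ID summed to 30.3 and 32.3 FPKM. In that last list TTR, of the choroid plexus, was higher (19.9 and 24.2 FPKM) and FOXJ1, of ependymal cilia, was lower past the 0.8 limit (8.89 and 6.14 FPKM); its median of 0.19 was −0.10 at a mean FPKM of at least 5. Markers of peripheral myelin and Schwann cells were low: the 3 with an ID summed to 4.28 and 4.42 FPKM.

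**Figure D5:**
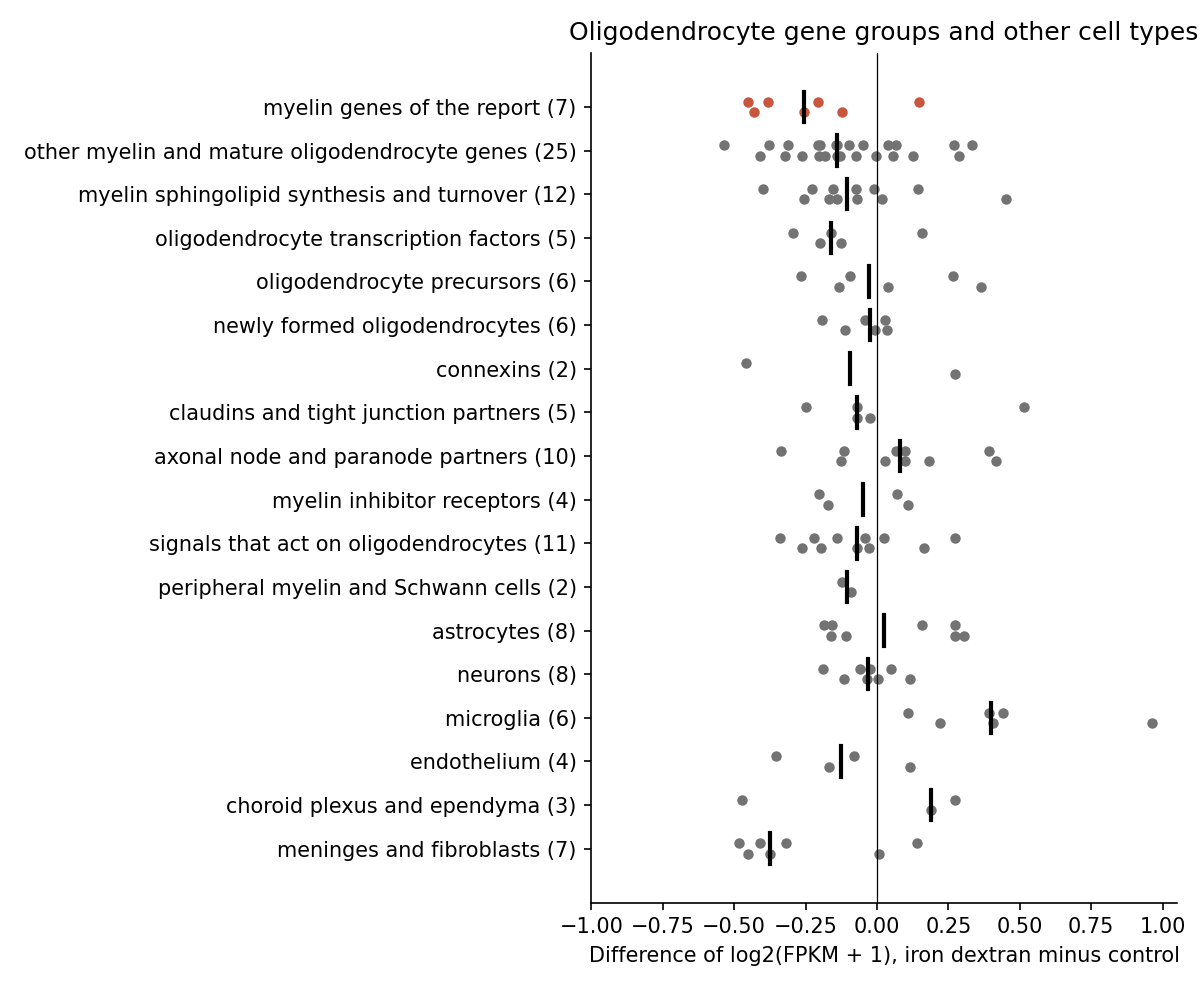
Log2(FPKM + 1) in iron dextran less that in control, of each measured gene (points) in the 7 myelin genes (red) and in 17 lists of oligodendrocyte biology and other cell types (grey), with the number of measured genes in brackets and the list median as a black bar. The medians of the myelin genes (−0.25) and the other mature oligodendrocyte genes (−0.14) lie below 0. Those of precursors and newly formed cells (both −0.03) lie near it and that of microglia (0.40) above it. With each expression bin centred (not drawn), the medians were −0.15 for the myelin genes and −0.05 for the other mature genes. For precursors the value was −0.01, for newly formed cells −0.02 and for microglia 0.35.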

How the data were processed

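The deposited table holds 1 FPKM value per Ensembl pig gene ID and sample, made by the authors from RNA sequencing reads. Per the submitters' processing notes, cutadapt 1.2.1 and TopHat were used with the pig builds Sscrofa10.2 and susScr3; for the program behind the FPKM, its annotation, strand use and the merging of the 2 names of a sample, no statement was found, and these are not given in the sources used. Columns were matched to samples by the letter in the sample title. Symbols came from a table of Ensembl IDs and names, which matched 11804 of 25322 IDs.

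Differences of log2(FPKM + 1) were computed in Python 3.11.15 over genes averaging 1 FPKM or more; adding 1 shrinks the differences of low genes, and folds are FPKM ratios unless the scale is named. The functions were tested on simulated data. Relative depth came from 690 genes under 0.1 FPKM in control. Percentiles by level used 20 bins. Genes named are the 9 members, a fixed set of lineage genes and up to 3 genes per list with the largest difference. PLLP, PLEKHB1, CA2, VCAN, CNTN1, CNTNAP1, IGF1R, IGF1, ERBB3, the hippocampal genes and the connexin ratio were picked with their values in view. FA2H, SOX9, DCN and GJC3 are also named outside this rule. Some named genes and their values are not reported here. The members and lists were chosen with earlier results of these data known. Alternatives were other pseudocounts, filters and scalings (TMM, the trimmed mean of M values, with 30% of M and 5% of A values trimmed per side).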

Additional observations from a re-analysis of the deposited data

How the results depend on the processing

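No paired analysis was possible because each group was 1 sample, and for the same reason no replicate could be left out. Under 8 other settings and 1 chosen after seeing the data (a mean FPKM of at least 20), 6 of the 7 measured myelin genes were below 0 each time and none was 1.5-fold lower. The settings that changed only the filter could not move these genes, since all 7 averaged above 20 FPKM. The median difference of −0.25 was −0.28 (−0.2750) with columns centred on their median, −0.13 (−0.1342) with equal column totals and −0.15 (−0.1515) with each expression bin centred. The count of genes lower by the 0.8 limit was 3; it was 1 with equal column totals and 2 with each bin centred. Of the 17 other lists, 13 had a median below 0, and 5 with equal column totals. The median of the meninges and fibroblast markers, −0.38, was 0.0059 at a mean FPKM of at least 20, where 1 of them is left. The same column total lifts genes of this level by about 0.12, which is the construction of that setting. Depth is unknown, so no counting interval can be given for any FPKM.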

Other observations

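Tight junction genes other than CLDN11 did not share a direction. OCLN, the occludin of epithelial and endothelial junctions, had 7.29 FPKM in the control sample and 10.8 with iron dextran (log2 difference 0.52). TSPAN3, a partner of claudin-11, had 337 and 321. The median of the 5 measured genes was −0.07 and was above 0 once column totals were made equal or each bin was centred.

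Some genes of the wider lists were listed at 0. GJC3, a connexin of myelinating cells, was listed at 0 in control and at 0.225 FPKM in iron dextran. IGF1R, the receptor through which IGF1 acts on oligodendrocytes, was listed at 0 in both samples, and IGF1 itself had 1.254 and 1.53 FPKM. The neuregulin receptor ERBB3 had 1.13 and 1.07 FPKM.

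The 3 genes that follow were chosen after their values were seen. Of the mature oligodendrocyte genes, ANLN, whose product scaffolds septins in myelin, had 5.14 FPKM in control against 6.40 with iron dextran, and STMN4 had 4.32 and 5.48. SEPTIN8, one of those septins, had 171 and 160.1 FPKM.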
